A study of Homo sapiens with 4 samples.

Results

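GATA2 peaks were examined around 8 genes that encode haematopoietic factors of the ETS family, ERG, FLI1, SPI1, ETV6, ETS1, ETS2, ELF1 and GABPA, in K562 cells. A peak was taken as a member if at least 1 of its bases lay in the GENCODE gene body of one of these genes or in the 50 kb on either side of it (hg38). By this rule 36 of the 31777 peaks of asynchronous cells and 1 of the 1648 peaks of mitotic cells were members. The rule uses positions of genes and no measured value.

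K562 is an established human leukaemia cell line derived from chronic myeloid leukaemia, with an aneuploid genome, and it expresses endogenous GATA2. ChIP-seq, which sequences the DNA recovered with an antibody, was performed with the same anti-GATA2 antibody (Santa Cruz, sc-9008) in both conditions. The asynchronous library was made from cells growing without arrest, most of them expected in interphase. The mitotic library was made from cells arrested with nocodazole, which blocks the spindle, and sorted as MPM-2+, a mark of mitotic phosphoproteins. Cells of both conditions were fixed with disuccinimidyl glutarate and then formaldehyde, and sorted mitotic cells from several rounds, with a remainder of asynchronous cells, were pooled into 1 library. There was thus 1 library per condition, so no comparison between conditions has a replicate check and none was tested. The deposited lists give the start and end of each peak with no height, and the depth of the libraries is not known from them. A site with no peak may therefore hold GATA2 below the limit of detection.

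ETS factors share a winged helix-turn-helix domain that binds DNA around the core GGAA. ERG and FLI1 are close relatives that act with GATA2, RUNX1, TAL1, LYL1 and LMO2 in blood stem and progenitor cells, the group known as the heptad. PU.1, the product of SPI1, drives myeloid and B cell fates and opposes GATA factors in the erythroid lineage. ETV6 is a repressor required for stem cells of the bone marrow, ETS1 and ELF1 are prominent in lymphoid cells, ETS2 responds to MAP kinase signalling, and GABPA binds many housekeeping and mitochondrial gene promoters.

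A single mitotic peak was found among all 8 genes, in ERG. It is shown first because it is the 1 place at which GATA2 was called at an ETS gene of this group in mitosis. It lay at chr21:38476472-38476727, in intron 1 of the canonical ERG transcript and 21715 bp downstream of the nearest ERG transcription start site (TSS). Its 256 bp are given from the plus strand of hg38, with capitals marking a match to the GATA consensus, taken here as AGATAA or AGATAG and, with another first base, TGATAA or TGATAG, on either strand without overlap.
ERG mitotic peak: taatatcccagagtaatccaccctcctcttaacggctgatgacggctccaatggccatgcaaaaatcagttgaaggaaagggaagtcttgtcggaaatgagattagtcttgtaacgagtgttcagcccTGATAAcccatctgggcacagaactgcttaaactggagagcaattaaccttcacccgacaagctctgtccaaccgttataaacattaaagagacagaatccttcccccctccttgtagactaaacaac
The peak held 1 GATA match, TGATAA from 38476600 to 38476605, whose middle lay 3 bp from the middle of the peak. No match to the ETS string AGGAAGT, the RUNX string AACCACA or the E-box CAGCTG lay in it. Only these exact strings were searched, and the shorter ETS core GGAA does occur in the sequence shown.

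The mitotic ERG peak lay entirely inside an asynchronous peak at chr21:38475905-38476834 and covered 27.5% of its 930 bp. An asynchronous peak that shares at least 1 base with a mitotic peak is called bookmarked here, after the study's term for mitotic retention. The middle of the mitotic peak was 230 bp from that of the asynchronous peak, on the side of the ERG TSS. The second GATA match of the asynchronous peak, TGATAA on the minus strand from 38476269 to 38476274, lay outside the mitotic peak. At 930 bp the bookmarked ERG peak was the widest of the 36 member peaks and at percentile 97.8 of all asynchronous widths.

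Bookmarking was thus seen at 1 of 36 member peaks, or 2.78% (95% exact binomial interval 0.0703% to 14.5%), and 35 were asynchronous only. Of all asynchronous peaks, 5.04% were bookmarked, which lies inside that interval. All intervals given here cover counting error over peaks only. At this number of peaks the interval of the bookmarked share is wide, and a difference from the whole list was not tested. Wider peaks were bookmarked more often, and if each member had the bookmarked share of its decile of width, 1.69 bookmarked peaks would be counted, beside 1.81 at the share of the whole list. Of protein-coding genes with the same window, 11.7% had at least 1 mitotic peak and 76.0% at least 1 asynchronous peak. Among the 8 ETS genes, 1 had a mitotic and 6 had an asynchronous peak.

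**Figure D1:**
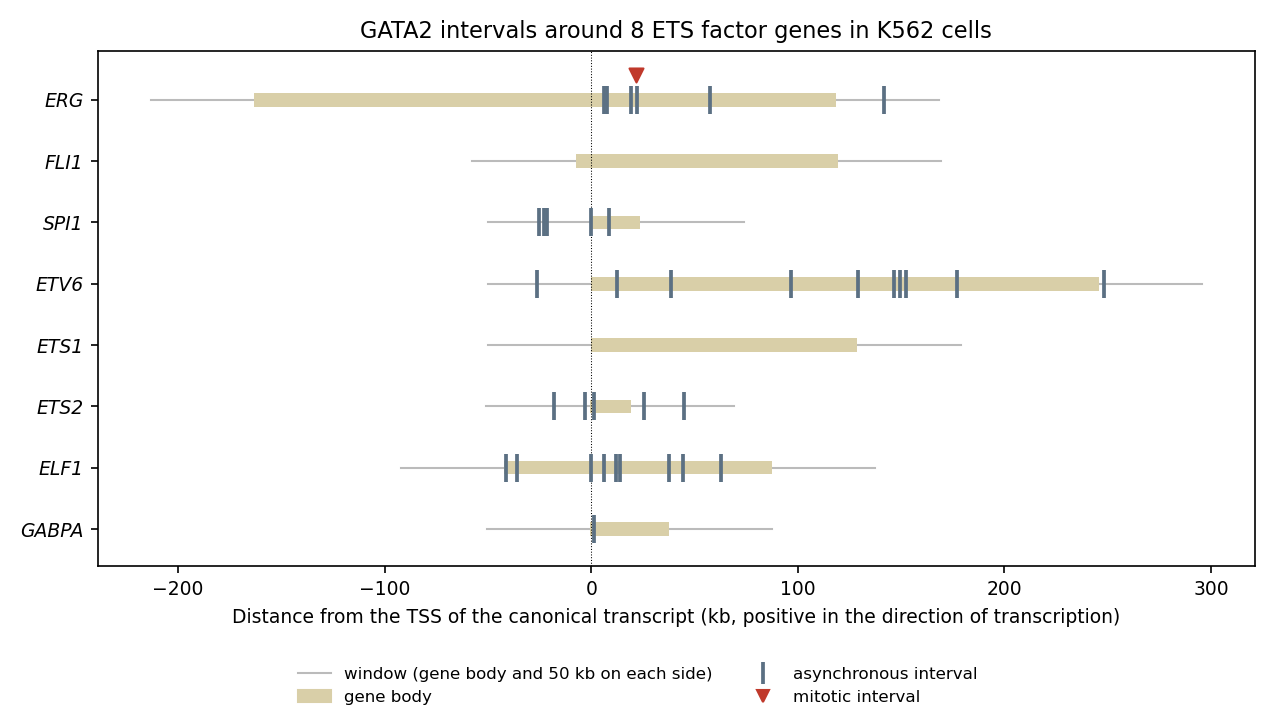
Positions of GATA2 peaks around the 8 ETS factor genes, in kb from the TSS of the canonical transcript, with the gene body as a bar, the window as a line, asynchronous peaks as ticks and mitotic peaks as triangles. ETV6 has the most ticks, 10, FLI1 and ETS1 have none, and the only triangle is in ERG.

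The 8 genes differed widely in the number of asynchronous peaks. ETV6 had 10, ELF1 9, ERG 6, SPI1 5, ETS2 5 and GABPA 1, and neither ETS1 nor FLI1 had any. Since the windows ranged from 119773 bp for ETS2 to 381754 bp for ERG, the counts were also expressed per 100 kb of window. ETS2 had 4.17 peaks per 100 kb, SPI1 4.04 and ELF1 3.92, and only 10.8%, 11.5% and 12.3% of all protein-coding genes had a denser window, respectively. ETV6 had 2.89 peaks per 100 kb, and 22.7% of genes were denser. ERG, the gene with the mitotic peak, had 1.57 per 100 kb and stood near the middle, with 47.0% of genes denser. GABPA had 0.725 per 100 kb. The median over the windows of all 20033 protein-coding genes was 1.41 per 100 kb (quartiles 0.301 and 2.77). Taken as one stretch of 1792834 bp, the windows of the 8 genes held 2.01 peaks per 100 kb, against 1.03 over the whole genome. The windows of the 20 other ETS family genes held 2.998 per 100 kb, so a density above that of the genome was not particular to the 8.

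ERG (ENSG00000157554) spans chr21:38380027-38661780 and is transcribed from the minus strand. There, 5 of the 6 asynchronous peaks were in introns. Of these, 4 were in intron 1 of the canonical transcript, between 6014 and 21608 bp downstream of the nearest ERG TSS, and 1 was in intron 2. The bookmarked peak and its neighbour were 2013 bp apart, and the pair nearest the start of intron 1 was 594 bp apart. ERG widths ran from 303 to 930 bp with a median of 528 bp, the highest median of the members with more than 1 peak. The peak of 705 bp nearest the start of intron 1, chr21:38491724-38492428, held 3 GATA matches, an ETS string and an E-box, and had no mitotic peak. The intron 2 peak of 657 bp, 4151 bp downstream of another ERG TSS, held 2 GATA matches and 2 AP-1 strings (TGACTCA or TGAGTCA), the sequence bound by FOS and JUN. The sixth peak lay beyond the 3′ end of ERG, and the protein-coding TSS nearest to it was that of KCNJ15, a potassium channel gene.

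SPI1 (ENSG00000066336, chr11:47354860-47378547, minus strand) had a peak over its own TSS. This peak was 672 bp wide, at percentile 89.5 of asynchronous widths. Another SPI1 peak, 307 bp wide, lay in intron 2, 8322 bp from the TSS. The other 3 formed a group 21456 to 25041 bp upstream of SPI1, with widths of 257, 298 and 261 bp, and their nearest TSS was that of SLC39A13, a zinc transporter gene. The first of the 3, chr11:47400003-47400259, held a GATA:E-box composite, CTG and GATAA separated by 8 bases, the arrangement bound by GATA factors together with TAL1. No mitotic peak lay in the SPI1 window, also not at the TSS.

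ETV6 (ENSG00000139083, chr12:11649674-11895377, plus strand) had the most asynchronous peaks and no mitotic peak. Of its 10 peaks, 8 lay in introns 1 and 2 of the canonical transcript, 1 was upstream and 1 downstream of the gene, and none was within 3 kb of an ETV6 TSS. Their widths ran only from 254 to 505 bp (median 386 bp), below the lower quartile of 546.75 bp of all bookmarked asynchronous peaks. A group of 3 peaks in intron 2, from chr12:11795812-11796136 to chr12:11801787-11802193, was spaced by 2660 and 2485 bp. The first of them held a composite close to its middle. The next held 1 ETS string and 1 E-box, and the last held 2 ETS strings. The central 200 bp of the first are shown for the composite, which is on the minus strand, so that capitals mark its reverse complement.
ETV6 intron 2 peak, chr12:11795874-11796073: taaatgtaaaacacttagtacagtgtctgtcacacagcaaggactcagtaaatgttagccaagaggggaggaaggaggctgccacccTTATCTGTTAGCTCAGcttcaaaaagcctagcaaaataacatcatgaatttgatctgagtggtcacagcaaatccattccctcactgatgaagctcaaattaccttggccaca

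ELF1 (ENSG00000120690, chr13:40931924-41061440, minus strand) had 9 asynchronous peaks, all inside the gene body, and no mitotic peak. In the canonical transcript 6 lay in introns and 1 had its middle in exon 1, across the TSS, and 2 more lay in the gene outside that transcript. In all, 3 of the 9 were within 3 kb of an ELF1 TSS, at 0, 450 and 899 bp. Widths ran from 228 to 922 bp, with a median of 304 bp. The widest, chr13:41004952-41005873 in intron 1, held 4 GATA matches, the most of any member peak, and lay 1103 bp from a peak of 695 bp. At 922 bp it was only 8 bp narrower than the bookmarked ERG peak and had no mitotic counterpart. A peak of 457 bp in intron 2, chr13:40981319-40981775, had no GATA match, but held 2 ETS strings, of which 1 was the longer PU.1 string GAGGAAGT, and 1 RUNX string. Its middle part is shown as the contrast to the peaks with GATA matches, with the reverse complement of the PU.1 string and the RUNX string in capitals, while the other ETS string lies outside the part shown.
ELF1 intron 2 peak without GATA match, chr13:40981447-40981652: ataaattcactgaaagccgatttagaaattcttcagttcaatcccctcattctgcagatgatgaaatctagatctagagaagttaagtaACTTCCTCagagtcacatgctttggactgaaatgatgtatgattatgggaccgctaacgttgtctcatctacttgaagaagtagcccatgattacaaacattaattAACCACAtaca

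ETS2 (ENSG00000157557, chr21:38805183-38824955, plus strand), a gene of only 19773 bp, had 5 asynchronous peaks and no mitotic peak. From the upstream to the downstream end of the window their widths were 245, 281, 383, 315 and 600 bp. Only the third lay in the gene, in intron 1, 783 bp from an ETS2 TSS, and its central 200 bp are shown for 2 of its 3 GATA matches, in opposite orientation (TTATCT is AGATAA read on the other strand).
ETS2 intron 1 peak, chr21:38807020-38807219: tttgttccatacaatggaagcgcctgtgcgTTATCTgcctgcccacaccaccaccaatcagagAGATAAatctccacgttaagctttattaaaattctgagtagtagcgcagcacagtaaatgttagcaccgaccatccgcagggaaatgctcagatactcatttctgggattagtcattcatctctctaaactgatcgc
The second, 2173 bp upstream of the TSS, was the other member peak without a GATA match, and it held none of the other strings either. The widest, 600 bp at chr21:38850361-38850960, lay 40725 bp beyond the nearest TSS with 3 GATA matches. The first held 2 AP-1 strings and 1 GATA match.

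GABPA (ENSG00000154727, chr21:25734570-25772460, plus strand) had 1 asynchronous peak of 451 bp in intron 1, at chr21:25736138-25736588. It was 749 bp from a GABPA TSS and 465 bp from that of ATP5PF, a subunit gene of the mitochondrial ATP synthase that is transcribed in the opposite direction. The next asynchronous peak was 161901 bp away. It held 2 GATA matches, of which 1 was part of a composite, and its central 200 bp are given with TGATAA and the reverse complement of the composite in capitals.
GABPA intron 1 peak, chr21:25736263-25736462: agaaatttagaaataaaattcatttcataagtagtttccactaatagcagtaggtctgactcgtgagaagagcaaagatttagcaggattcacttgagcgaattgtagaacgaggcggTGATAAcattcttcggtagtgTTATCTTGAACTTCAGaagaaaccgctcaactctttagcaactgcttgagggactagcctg

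No peak of either list lay in the windows of ETS1 and FLI1. They are neighbours, with ETS1 (ENSG00000134954) at chr11:128458761-128587558, minus strand, and FLI1 (ENSG00000151702) at chr11:128686535-128813267, plus strand. Their windows share 1024 bp and span 454507 bp together. The stretch without asynchronous peaks was longer than the windows, 736640 bp from 128157984 to 128894623, and it held no mitotic peak. The third protein-coding gene wholly inside it was KCNJ1, another potassium channel gene. The median stretch between neighbouring asynchronous peaks was 23156 bp, and 730 of 31753 such stretches (2.30%) were longer than that at ETS1 and FLI1. That share counts stretches and not bases, and each long stretch takes up more of the genome than a short one. The nearest asynchronous peak was 300778 bp from the ETS1 body and 81357 bp from the FLI1 body. Of the 2720 protein-coding genes with a window of similar length to that of ETS1, 16.6% had no peak, as had 16.6% of the 2795 similar to FLI1, so an empty window of this size is not rare. GATA matches were present in the sequence of both windows, at 2.24 per kb for ETS1 and 1.99 per kb for FLI1. Among the members with peaks there were 2.40 per kb at ELF1, 2.28 at GABPA, 2.24 at ETV6, 2.19 at ERG, 2.13 at ETS2 and 1.24 at SPI1. FLI1 was thus below all of these except SPI1. In the whole stretch, which by its definition holds no asynchronous peak, there were 1686 GATA matches and 23 composites. Read coverage, copy number and accessibility of the stretch were not analysed here.

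Most member peaks lay away from promoters. Midpoints of 22 of the 36 were in introns of the canonical transcripts, 2 in exons, 2 elsewhere in the gene and 10 in the flanks. For 31 the nearest protein-coding TSS was that of the member gene, and for 5 that of another gene. A protein-coding TSS within 3 kb was found for 7 peaks, or 19.4% (95% exact binomial interval 8.19% to 36%), against 21.4% of all asynchronous peaks. Those 7 were at ELF1, ETS2, SPI1 and GABPA, and ERG and ETV6 had none there. Another peak within 5 kb was found for 16 of 36, or 44.4% (27.9% to 61.9%), against 36.9%. RefSeq promoter sequences of 250 bp before to 50 bp after the start (GRCh38.p14) were matched for ERG, ETV6, ETS2, ELF1 and GABPA and not for FLI1, SPI1 and ETS1. No peak overlapped one of them, and the closest, at ELF1, was 458 bp away. However, the canonical start of ELF1, which lies under a peak, was not among the matched sequences. The SPI1 start, also under a peak, was not matched either, so the absence of overlap holds for the matched starts only. An AGGAAGT string was present in 1 ETS2 promoter, and the other held a GATA match. A GATA match was also present in 3 promoters of ERG and ELF1, and those of them at ERG overlap each other. Of all RefSeq promoters, 8.24% and 25% held such strings, and the few member promoters allow no comparison with these shares.

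Width was the only measure of a peak in these lists. The median over the 36 member peaks was 336 bp, with quartiles of 293.75 and 452.5 bp (95% interval of the median 303 to 407 bp). All asynchronous peaks had a median of 378 bp, inside that interval. Among the members, 4 peaks were wider than 674 bp, the median of all bookmarked asynchronous peaks, and 3 of these 4 were not bookmarked. They were the 922 and 695 bp peaks of ELF1 and the 705 bp peak of ERG. The SPI1 promoter peak, at 672 bp, was just below. In the widest decile of all asynchronous peaks, 24.6% were bookmarked, and of the 4 members in it, 1 was.

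GATA matches were present in 34 of the 36 member peaks, or 94.4% (81.3% to 99.3%), beside 93.0% of all asynchronous peaks. The median was 2 matches per peak in both. None of the 36 held more than 4, which allows up to 8.33% by 3 counts of the total and 9.74% by the exact interval. Of all asynchronous peaks, 9.21% held 5 or more. The mean was 1.86 against 2.51, and single peaks of the whole list held up to 125 matches. Of the 67 matches in member peaks, 35 read AGATAA and 19 read TGATAA, while AGATAG was read 7 times and TGATAG 6 times. AGATAA made up 52.2% of them, against 43.1% over all asynchronous peaks, and AGATAG 10.4% against 21.9%. These shares pool matches over peaks, so peaks with many matches weigh more. They have no interval, and the difference was not tested.

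The DNA string of the ETS family itself, AGGAAGT, occurred in 6 of the 36 peaks at ETS genes, or 16.7% (6.37% to 32.8%). The share over all asynchronous peaks was 14.9%. These 6 were 2 each at ETV6 and ELF1 and 1 each at ERG and SPI1. The RUNX string, the E-box and the AP-1 string each occurred in 4 member peaks, or 11.1% (3.11% to 26.1%), beside 13.6%, 24.1% and 13.0% of all asynchronous peaks. The composite occurred in 3, or 8.33% (1.75% to 22.5%), beside 8.55%. For none of the strings did the whole list fall outside the interval of the members. A string is a match in the reference letters, and binding of ETS, RUNX, AP-1 or TAL1 proteins there was not measured.

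The other 20 human ETS family genes were counted in the same way, from a fixed list. Of these, 18 had at least 1 asynchronous peak and 3 had a mitotic peak, beside 76.0% and 11.7% of all protein-coding genes. Each of the 3 mitotic peaks overlapped an asynchronous peak, as did 97.5% of all mitotic peaks. Together their windows held 80 asynchronous peaks, of which 3.75% (0.780% to 10.6%) were bookmarked, beside 5.04% of all asynchronous peaks. EHF, an epithelial ETS factor gene, had the most, with 11 asynchronous peaks or 7.74 per 100 kb. Its mitotic peak, chr11:34603607-34603921, lay 17172 bp upstream of its TSS. The mitotic peaks in the windows of ELF5 and ETV7 lay in the flanks of these genes, and their nearest TSS were those of CAT, which encodes catalase, and of BNIP5. All 3 asynchronous counterparts were wide, with 935, 726 and 890 bp. SPIB and SPIC, the closest relatives of SPI1, had no peak.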

How the data were processed

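Asynchronous and mitotic GATA2 ChIP-seq libraries of K562 cells were used, 1 per condition, and the inputs were not used here. The authors aligned reads to hg38 with BWA 0.7.12, kept uniquely mapped reads, called peaks with MACS2 2.1.0 and Genrich 0.6.1 and removed blacklisted peaks. Thresholds, the use of inputs and the combination of both callers are not given in the sources used here. The deposited values are peak positions in bp, with no score, so depth is unknown and width is the sole measure. More sequencing depth gives more and wider peaks, which could change every count.

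Gene bodies were those of GENCODE release 44 (GRCh38), the build of the lists, and no peak reached past a chromosome end. Windows added 50 kb. Lists were overlapped by at least 1 base. Strings were searched on both strands of the reference. Shares have exact binomial intervals (95%), and for a count of 0 the limit given by 3 counts of the total is added. No test was made. All 8 members are named, other ETS genes by count, with values for those with a mitotic peak or the most asynchronous peaks. Single peaks described are every mitotic peak, the widest of each member and those near a TSS, and other peaks were picked after their values were seen. The members and lists were chosen with earlier results of these data known. Overlap and string search were tested on simulated data. Alternatives changed the window, the gene body, the overlap, the peaks kept, the part searched and the strings. Tables were handled with pandas 2.3.3 and numpy 2.4.6 in Python 3.11.15, intervals came from scipy 1.17.1, sequence was read with pysam 0.24.0 and plots were drawn with matplotlib 3.10.9. The sequence of the peak at the SPI1 start site is not reported here.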

Additional observations from a re-analysis of the deposited data

How the results depend on the processing

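Of 49 values recomputed under an alternative, 39 stayed within 1.5 times the count or density, or within the 95% interval of the share or median, and 10 moved. When only peaks at or above the median width of their own list were kept, 17 asynchronous and 0 mitotic peaks were left. The ERG mitotic peak (256 bp) is narrower than the mitotic median of 298 bp. Such a filter by itself lowers the asynchronous count and density and raises the median width, so those moves were fixed in advance. The bookmarked share was then 0% (0 of 17, which allows up to 17.6% by 3 counts and 19.5% by the exact interval). Over all asynchronous peaks of that width it was 5.00%. Overlaps with mitotic peaks narrower than the mitotic median were left out of both shares. Neither is therefore the bookmarked share of wide peaks as defined above. The density was 0.948 peaks per 100 kb and the median width 457 bp. The share with AGGAAGT was 35.3% (14.2% to 61.7%), beside 18.2% of all asynchronous peaks of that width. The bookmarked share was also 0% (0 of 36, which allows up to 8.33% by 3 counts and 9.74% by the exact interval) with reciprocal overlap of at least 50% and with midpoints within 200 bp, where 2.02% and 4.67% of all asynchronous peaks were bookmarked, since the mitotic peak covers 27.5% of its counterpart with midpoints 230 bp apart. The 1 bookmarked peak thus depends on how overlap is defined. In the central 200 bp, 77.8% of member peaks (60.8% to 89.9%) held a GATA match, beside 84.8% of all asynchronous peaks. Over the whole peak, GAGGAAGT was found in 2.78% of member peaks (0.0703% to 14.5%), beside 5.62% of all asynchronous peaks. With windows of 0, 10 or 100 kb on each side there were 26, 29 and 48 asynchronous peaks and in each case 1 mitotic peak. The peak farthest from a member's gene body was 25964 bp away (ETV6, 269 bp wide), and the closest one left out was 50942 bp away (ERG, 348 bp wide). No paired analysis was possible because each condition has 1 library.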
